A study of Bos taurus with 12 samples.

Results

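The 9 genes described here encode the chains of collagen VI (COL6A1, COL6A2, COL6A3) and of collagens that lie on fibrils, in networks or beside basement membranes (COL8A1, COL12A1, COL14A1, COL15A1, COL16A1, COL18A1). They were chosen by gene name, and they are 9 of the 33714 entries in the deposited mRNA table. All 9 reached a mean of at least 0.1 FPKM over the libraries (fragments scaled to transcript length and to the mapped reads of the library) and so belonged to the 15402 mRNAs that were tested.

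The study followed preadipocytes isolated from the longissimus muscle of newborn Qinchuan cattle (Bos taurus) through adipogenic differentiation in culture. Total RNA was sequenced at 0 d, 3 d, 6 d and 9 d, with 3 libraries on each of the 4 days and 12 in all. The 0 d libraries are the reference for differentiation. Cells of the 3 d, 6 d and 9 d groups had first received dexamethasone, IBMX and insulin in serum-containing medium, and insulin alone from before 3 d onward, so every later day differs from 0 d in both time and agents. The 3 libraries of a day are described as biological replicates in the study's methods, while the labels do not say whether they came from separate animals or cultures. The study's discussion describes the cells sequenced on the different days as the same batch. The p-values below measure the spread between these libraries.

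Collagen VI is built from alpha chains that assemble into beaded microfilaments in the matrix around cells, and it is abundant around muscle fibres and adipocytes. Collagens XII, XIV and XVI have interrupted triple helices and attach to the surface of fibrils made by other collagens. Collagens XV and XVIII carry glycosaminoglycan chains, lie at basement membranes and release C-terminal fragments (restin and endostatin), and collagen VIII forms short-chain networks.

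The summed FPKM of a library ranged from 1221194 to 1371794, and 18423 to 19376 table entries were above 0 in a library. The mRNA table gives no read totals, so the sequencing depth behind an FPKM value is not known from it, and values are rounded to 2 decimals. Of the 8 adipocyte markers, 6 were in the table (PPARG and PLIN1 were not analysed here), and their summed level averaged 8.20, 103.7, 31.8 and 17.8 FPKM at 0, 3, 6 and 9 d. FABP4, a fatty acid binding protein of adipocytes, had the highest mean of them over the 12 libraries and averaged 3.30 FPKM at 0 d and 91.1 at 3 d, so it carried most of the sum on that day. The 8 markers of fibroblasts or preadipocytes averaged a sum of 997.4, 1915, 1165 and 1537 FPKM at 0, 3, 6 and 9 d, with the highest mean over the 12 libraries for the proteoglycan LUM. The adipocyte sum was below the preadipocyte sum on all 4 days. The 6 adipocyte markers did not all peak at 3 d, as CIDEC, named after its values were seen, averaged 0.13 FPKM at 3 d and 0.407 at 9 d.

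Each later day was first compared with 0 d, which asks how the mRNAs stand after induction. An mRNA was called when its log2 fold change exceeded 1 in either direction and its limma p, adjusted over all 15402 mRNAs tested, was under 0.05. At 3 d, 6 of the 9 collagens were called lower, against 15.2% of all mRNAs tested, and COL18A1 was the 1 called higher, against 8.06%. The median log2 fold change of the 9 was -1.91, while that of all mRNAs tested was -0.06. At 6 d only COL15A1 and COL8A1 were still called lower, 2 of 9 against 7.97% of all mRNAs, and limma called 0 higher against 3.39%, with 0 higher at an unadjusted p under 0.05. At 9 d only COL15A1 was called lower, 1 of 9 against 7.47%, and limma called 0 higher against 3.41%, with 4 higher at an unadjusted p under 0.05. The medians of the 9 were then -0.18 at 6 d and 0.02 at 9 d, beside medians of -0.15 and -0.19 over all mRNAs. These comparisons share the 0 d libraries and are not independent of each other.

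The later days were also compared with each other. From 3 d to 6 d, 5 of the 9 collagens were called higher, against 9.85% of all mRNAs, and COL18A1 was called lower, 1 of 9 against 9.23%. From 6 d to 9 d, COL15A1 and COL8A1 were called higher, 2 of 9 against 2.55%, and limma called 0 lower against 1.89%, with 2 lower at an unadjusted p under 0.05. Between 3 d and 9 d, 6 of 9 were higher at 9 d, against 10.2%, and 1 was lower, COL18A1, against 10.3%. Pairs of these comparisons share the 3 d, 6 d or 9 d libraries. Fold changes are differences of log2(FPKM + 0.1), a scale that understates changes of genes near 0, which among the 9 concerns COL8A1. In RNA from whole cultures, fewer cells of a type and less RNA per cell cannot be told apart.

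**Figure D1:**
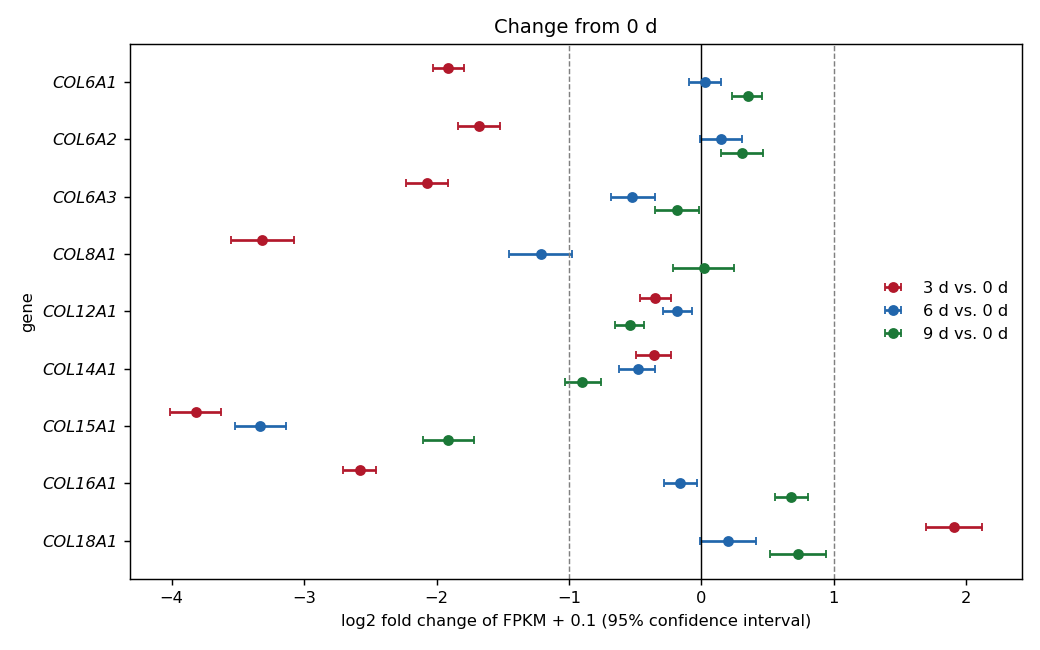
Log2 fold change of FPKM + 0.1 against 0 d (horizontal axis) for the 9 genes (vertical axis) at 3 d, 6 d and 9 d, with points for the limma estimate, bars for its 95% confidence interval and dashed lines at the fold change limit of 1 in either direction. At 3 d the points of 6 genes lie left of the lower limit, from -1.68 to -3.82, and COL18A1 lies right of the upper limit at 1.91.

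The deposited FPKM values carry a small general shift. When the libraries were rescaled by the median of ratios, the median log2 fold change over all mRNAs moved by 0.09 at 3 d, 0.14 at 6 d and 0.16 at 9 d against 0 d. Of the mRNAs called at 9 d, 31.3% were higher than at 0 d in the deposited values and 44.8% after rescaling. Changes of this size at 6 d and 9 d are therefore read against the shift in what follows, and the rescaled value of a member, or the rescaled counts of a gene list, are given where rescaling altered the outcome against 0 d.

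COL6A1, the first alpha chain of collagen VI, was measured at 1145, 1094 and 1167 FPKM at 0 d and at 286.8, 307.6 and 311.8 at 3 d. Its libraries held 1169, 1173 and 1138 FPKM at 6 d and 1474, 1353 and 1506 at 9 d. The 3 d libraries were far below all others, the 0 d and 6 d libraries overlapped, and the 9 d libraries were above all others. At 3 d the mean of 302.1 ± 13.4 FPKM (SD, 3 libraries) was 26.6% of the 0 d mean of 1136 ± 37.4. The log2 fold change was -1.91 with a standard error of 0.0528 and a 95% confidence interval from -2.03 to -1.79, and the limma adjusted p was 1.31e-09. At 6 d the difference from 0 d was 0.03 (adjusted p = 0.701) as deposited and 0.18 (adjusted p = 0.0164) after rescaling, so its side of the threshold depends on the scaling. At 9 d COL6A1 was 0.35 above 0 d (adjusted p = 0.000613), and 0.53 after rescaling.

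COL6A2, the second alpha chain, stood at 1098, 1081 and 1168 FPKM at 0 d and at 309.7, 369.7 and 370.5 at 3 d. Its values were 1226, 1277 and 1201 FPKM at 6 d and 1424, 1318 and 1414 at 9 d. No library of any day fell within the range of another day, with 3 d lowest and 9 d highest. At 3 d the level was 31.4% of that at 0 d, a log2 fold change of -1.68 with a standard error of 0.0722 (limma adjusted p = 2.89e-08). The step from 0 d to 6 d was 0.15 (adjusted p = 0.152), and 0.29 after rescaling (adjusted p = 0.0079). The 9 d level was 0.31 above 0 d (adjusted p = 0.00708), and 0.49 after rescaling (adjusted p = 0.000378). It was 0.17 above 6 d (adjusted p = 0.146). Without replicate 1 of 3 d, which enters the common estimate of the spread, the adjusted p was 0.0419 for 6 d against 0 d and 0.0396 for 9 d against 6 d.

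COL6A3, which encodes the longest of the classical chains and ends in the domain released as endotrophin, was present at 210.9, 217.7 and 203.8 FPKM at 0 d. It was measured at 45.9, 52.0 and 52.6 FPKM at 3 d, and at 157.1, 144.6 and 140.8 at 6 d. At 9 d the libraries held 199.9, 175.9 and 182.0 FPKM. The 0 d libraries were the highest and the 3 d libraries the lowest, and no groups overlapped. At 3 d COL6A3 was at 23.8% of its 0 d level, with a log2 fold change of -2.07 and a standard error of 0.0733 (limma adjusted p = 7.21e-09). Unlike the estimates for COL6A1 and COL6A2, its estimate at 6 d was below 0 d, by -0.52 (adjusted p = 0.00037), and by -0.37 after rescaling (adjusted p = 0.00289). At 9 d the difference from 0 d was -0.18 (adjusted p = 0.0786), and it was 0.00 after rescaling. It passed the threshold without replicate 1 of 9 d (-0.24, adjusted p = 0.0456) or replicate 1 of 3 d (adjusted p = 0.0497).

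The 3 chains together summed to 2454, 2393 and 2539 FPKM at 0 d and to 642.5, 729.3 and 734.9 at 3 d. They summed to 2552, 2595 and 2480 FPKM at 6 d and to 3099, 2847 and 3102 at 9 d. The sum was lowest in the 3 d libraries and highest in the 9 d libraries, and it overlapped between 0 d and 6 d. As a share of all FPKM, collagen VI made up 0.188%, 0.0562%, 0.194% and 0.222% at 0, 3, 6 and 9 d. Differences between days in this sum, and in 5 ratios between collagens, were tested by an exact permutation test, one-sided for large differences, over all 15400 ways to part the 12 libraries into 4 groups of 3. The smallest p this test can give is 6.49e-05, and p-values were adjusted over the 6 values by Benjamini-Hochberg. For the collagen VI sum the exact p was 0.00013 (adjusted 0.00026).

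The proportions of the chains also differed between days. The mean log2 ratio of COL6A2 to COL6A1 was -0.03, 0.21, 0.09 and -0.06 at 0, 3, 6 and 9 d (exact p = 0.000844, adjusted 0.00101). In the single libraries it ran from 0.11 to 0.27 at 3 d and from 0.07 to 0.12 at 6 d, while it lay between -0.09 and 0.00 at 0 d and 9 d. COL6A2 was thus a little more abundant per length than COL6A1 at 3 d, at a ratio of 1.16, and a little less at 9 d, at 0.96. COL6A3 was scarcer than COL6A1 and COL6A2 on every day. Its mean log2 ratio to COL6A1 was -2.43, -2.59, -2.98 and -2.96 at 0, 3, 6 and 9 d (exact p = 0.000714, adjusted 0.00101). Against COL6A2 it was -2.40, -2.80, -3.07 and -2.90 at 0, 3, 6 and 9 d, with the smallest p that the permutations can give, 6.49e-05 (adjusted 0.000195). In FPKM, COL6A3 stood at 0.186 of COL6A1 at 0 d and at 0.127 at 6 d.

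**Figure D2:**
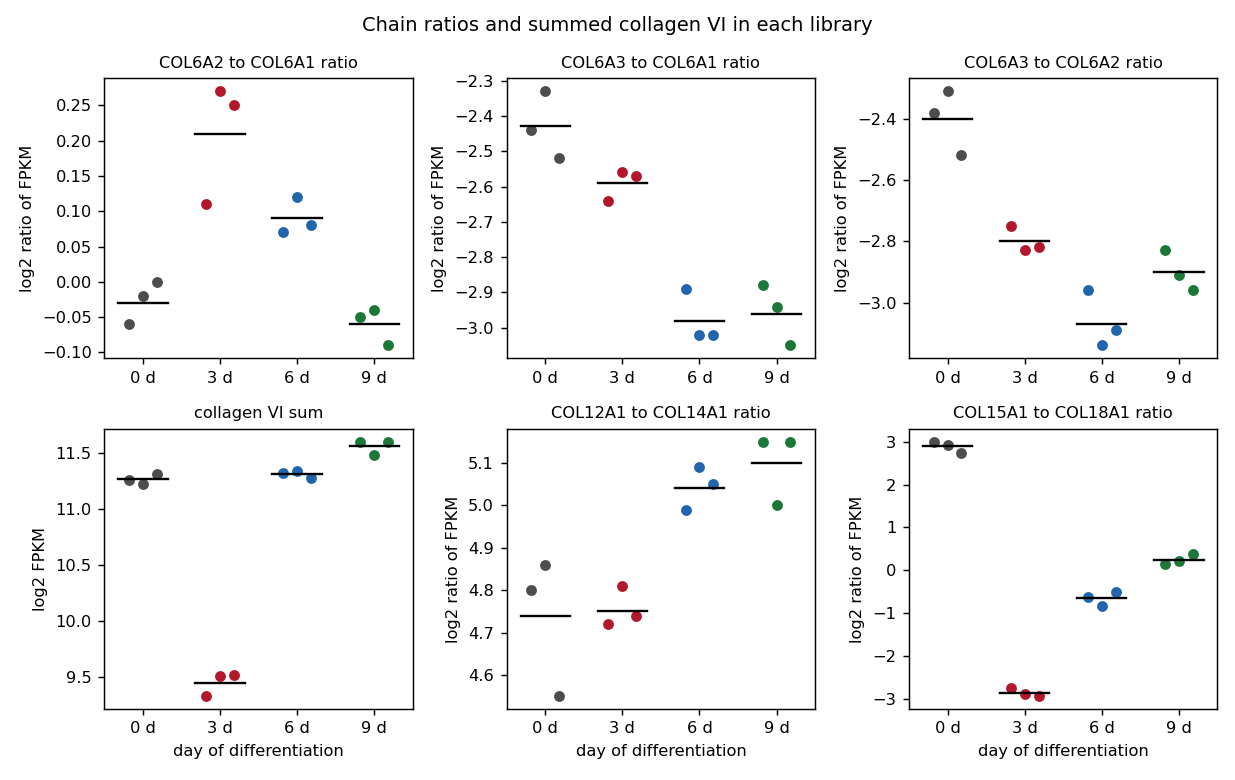
Log2 of the 5 FPKM ratios and of the summed FPKM of collagen VI (vertical axes, each with its own range that does not start at 0) by day of differentiation (horizontal axes), with a point for each library and a line at the mean of its 3 libraries. The ratios of COL6A3 to COL6A1 and to COL6A2 lie highest at 0 d. The ratio of COL15A1 to COL18A1 falls from 2.89 at 0 d to -2.86 at 3 d.

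COL16A1 encodes a collagen that attaches to fibrils and to fibrillin microfibrils. Like COL6A1, COL6A2 and COL6A3, it was lowest at 3 d. It was measured at 54.9, 54.2 and 55.7 FPKM at 0 d and at 8.97, 9.26 and 9.04 at 3 d. The values were 49.4, 47.7 and 50.7 FPKM at 6 d and 94.5, 85.0 and 85.8 at 9 d. No groups overlapped, and the 9 d libraries were the highest. COL16A1 was at 16.5% of its 0 d level at 3 d, a log2 fold change of -2.58 with a standard error of 0.0553 (limma adjusted p = 2.51e-10). From 3 d to 9 d it rose by 3.27 on the log2 scale (adjusted p = 9.75e-11), to 161% of the 0 d mean. At 9 d it was 0.68 above 0 d (adjusted p = 8.96e-06), and 0.86 after rescaling. The 6 d level was -0.16 from 0 d with an adjusted p of 0.0494, and that difference was -0.01 (adjusted p = 0.909) after rescaling. It also missed the threshold when any library of 0 d, 3 d or 6 d, or replicate 2 or 3 of 9 d, was left out (adjusted p from 0.0556 to 0.151).

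COL8A1, the alpha 1 chain of the network-forming collagen VIII, was the least abundant of the 9. Its values were 2.55, 2.26 and 2.26 FPKM at 0 d and 0.14, 0.13 and 0.17 at 3 d. They were 0.89, 1.07 and 0.92 FPKM at 6 d and 2.42, 2.30 and 2.44 at 9 d. The 3 d libraries were near the lower end of what was tested, the 6 d libraries lay between, and the 0 d and 9 d libraries overlapped. COL8A1 fell by 3.32 at 3 d on the log2 scale, with a standard error of 0.104 (limma adjusted p = 3.18e-09), and it was still lower by -1.21 at 6 d (adjusted p = 1.18e-05). The step from 6 d to 9 d was 1.23 (adjusted p = 2.96e-05). The 3 d change was -1.55 with a pseudocount of 1 and -3.92 with 0.01, and it was called in both cases. With a pseudocount of 1, COL8A1 was no longer called at 6 d against 0 d, at 6 d against 3 d or at 9 d against 6 d. The difference between 9 d and 0 d was 0.02 (adjusted p = 0.909).

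COL15A1, the core protein of a proteoglycan between basement membranes and the fibrils beneath them, had the largest fall of the 9 at 3 d on the log2(FPKM + 0.1) scale. As a share of the 0 d mean it was at 7.03%, and COL8A1 at 6.22%. It was measured at 267.0, 270.0 and 273.0 FPKM at 0 d and at 18.3, 19.6 and 19.0 at 3 d. The values were 28.1, 23.9 and 28.4 FPKM at 6 d and 70.6, 65.8 and 80.1 at 9 d. All groups stood apart, and every later library was below every 0 d library. The log2 fold change was -3.82 at 3 d with a standard error of 0.0858 and a 95% confidence interval from -4.01 to -3.63 (limma adjusted p = 3.31e-10). It was -3.33 at 6 d (adjusted p = 4.42e-09) and -1.91 at 9 d (adjusted p = 1.82e-07). The 9 d mean was 26.7% of the 0 d mean, and COL15A1 was the 1 gene of the 9 called against 0 d on all 3 later days.

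COL18A1, the related collagen that carries endostatin at its C-terminal end, moved in the opposite direction. Its values were 33.4, 35.7 and 40.9 FPKM at 0 d and 122.8, 146.1 and 145.9 at 3 d. They were 43.1, 42.9 and 40.1 FPKM at 6 d and 63.9, 56.4 and 62.2 at 9 d. The 3 d libraries were the highest, followed by those of 9 d, while the 0 d and 6 d libraries overlapped. At 3 d the level was 377% of that at 0 d, with a log2 fold change of 1.91, a standard error of 0.0948 and a 95% confidence interval from 1.70 to 2.12 (limma adjusted p = 8.13e-08). From 3 d to 6 d COL18A1 fell by 1.71 on the log2 scale (adjusted p = 2.68e-07). The 6 d level differed from 0 d by 0.20 (adjusted p = 0.135), and by 0.35 after rescaling (adjusted p = 0.0154). Without replicate 3 of 0 d that difference was 0.28 (adjusted p = 0.0483). At 9 d COL18A1 was 0.73 above 0 d (adjusted p = 0.00022), short of the fold change limit.

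The ratio of COL15A1 to COL18A1 followed from these opposite changes. Its log2 value was 3.00, 2.92 and 2.74 in the 0 d libraries and -2.74, -2.90 and -2.94 in those of 3 d. It was -0.62, -0.84 and -0.50 at 6 d and 0.14, 0.22 and 0.37 at 9 d. COL15A1 was the more abundant of the pair per length at 0 d, at a ratio of 7.41, and COL18A1 was the more abundant at 3 d, at a ratio of 0.138. The exact p was 6.49e-05, the smallest possible, and the adjusted value was 0.000195.

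COL12A1, a large collagen that bridges fibrils and other matrix proteins, was the most abundant of the 9 on every day and changed least. It was measured at 3998, 4062 and 3609 FPKM at 0 d and at 3137, 3034 and 3004 at 3 d. The values were 3459, 3468 and 3347 FPKM at 6 d and 2764, 2598 and 2670 at 9 d. The 0 d libraries were the highest and the 9 d libraries the lowest, and no groups overlapped, yet the lowest day was still at 68.8% of the highest. The log2 fold change against 0 d was -0.35 at 3 d (limma adjusted p = 0.000206), -0.18 at 6 d (adjusted p = 0.017) and -0.54 at 9 d (adjusted p = 2.3e-05). None of these passed the fold change limit. After rescaling the 6 d difference was -0.03 (adjusted p = 0.65), and the difference between 9 d and 3 d went from -0.19 (adjusted p = 0.00879) to -0.10 (adjusted p = 0.102). The 6 d difference also lost its adjusted p without replicate 1 of 0 d (0.0635), without replicate 2 of 0 d (0.062) and without replicate 3 of 6 d (0.0601). The step from 3 d to 6 d, 0.16 (adjusted p = 0.0205), lost it without replicate 2 (0.0536) or 3 (0.0643) of 3 d and without replicate 1 (0.0573) or 2 (0.0625) of 6 d.

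COL14A1, its close relative on fibril surfaces, was lower on each later day. The values were 143.1, 140.0 and 153.6 FPKM at 0 d and 119.2, 108.4 and 112.5 at 3 d. They were 108.9, 102.0 and 101.3 FPKM at 6 d and 77.8, 81.3 and 75.5 at 9 d. The 0 d libraries were above and the 9 d libraries below all others, and those of 3 d and 6 d overlapped. Against 0 d the log2 fold change was -0.36 at 3 d (limma adjusted p = 0.000515), -0.48 at 6 d (adjusted p = 0.000136) and -0.90 at 9 d (adjusted p = 2.24e-06). After rescaling the 9 d value was smaller, at -0.71 (adjusted p = 2.88e-05), and it kept its direction and its side of the adjusted p threshold. In neither case did the fall pass the fold change limit. The log2 ratio of COL12A1 to COL14A1 averaged 4.74, 4.75, 5.04 and 5.10 at 0, 3, 6 and 9 d (exact p = 0.00578, adjusted 0.00578). COL12A1 was 26.8 times as abundant as COL14A1 at 0 d and 34.3 times at 9 d, both per length.

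**Figure D3:**
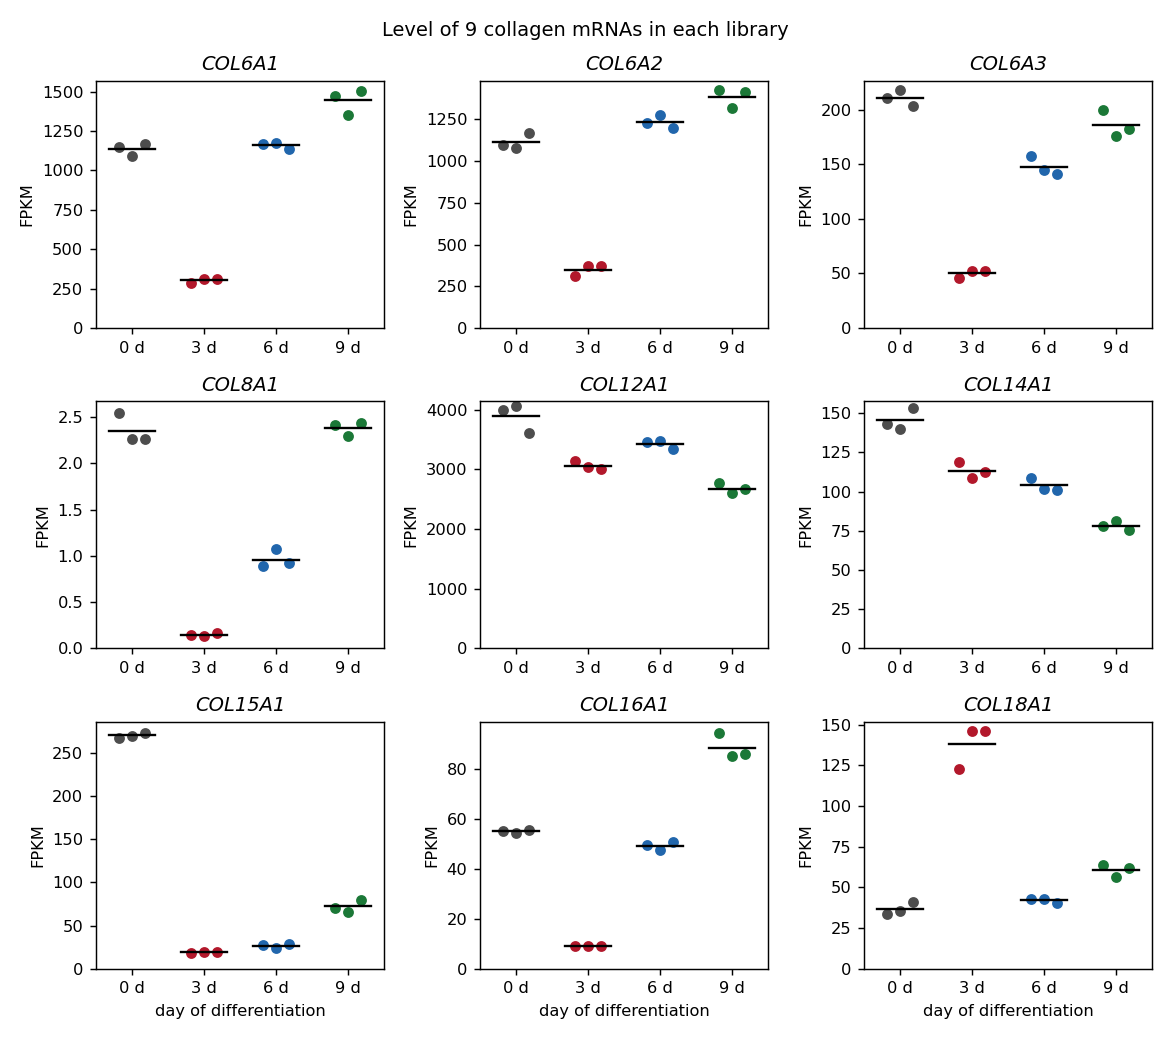
FPKM of each of the 9 genes (vertical axes, each starting at 0 with its own range) by day of differentiation (horizontal axes), with a point for each library and a line at the mean of its 3 libraries. COL6A1, COL6A2, COL6A3, COL8A1, COL15A1 and COL16A1 are lowest at 3 d, COL18A1 is highest at 3 d with 122.8 to 146.1 FPKM, and COL12A1 and COL14A1 are lowest at 9 d.

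The order of the day means differed among the 9 genes. COL6A1 and COL6A2 ran from 3 d through 0 d and 6 d up to 9 d, COL8A1 and COL16A1 from 3 d through 6 d and 0 d up to 9 d, and COL6A3 and COL15A1 from 3 d through 6 d and 9 d up to 0 d. COL18A1 ran from 0 d through 6 d and 9 d up to 3 d. COL12A1 ran from 9 d through 3 d and 6 d up to 0 d, and COL14A1 from 9 d through 6 d and 3 d up to 0 d. In the deposited values, some neighbours in these orders had a limma adjusted p of 0.05 or more. These were 0 d and 6 d for COL6A1, COL6A2 and COL18A1. They were also 6 d and 9 d for COL6A2, and 9 d and 0 d for COL6A3. The same held for 0 d and 9 d in COL8A1 and for 6 d and 3 d in COL14A1. After rescaling, the 0 d and 6 d pairs of COL6A1, COL6A2 and COL18A1 passed the threshold. Those of COL12A1 and COL16A1 then missed it, as did 9 d and 3 d in COL12A1.

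The summed level of the 9 genes averaged 6861, 4041, 6190 and 5995 FPKM at 0, 3, 6 and 9 d. COL12A1 made up 56.7%, 75.7%, 55.3% and 44.7% of this sum at 0, 3, 6 and 9 d. COL6A1 and COL6A2 supplied 7.48% and 8.66% at 3 d, and 24.1% and 23.1% at 9 d. COL18A1 supplied 3.42% at 3 d against 0.535% at 0 d, and COL15A1 supplied 0.47% against 3.94%.

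As a description over the 12 libraries, which fall into 4 groups by day, the log2 levels of the genes were compared by Pearson r. COL6A1 and COL6A2 had an r of 0.997, and COL6A1 and COL16A1 had an r of 0.992. COL12A1 and COL14A1 had an r of 0.861 with each other and of 0.080 and -0.265 with COL6A1. COL18A1 had a negative r with each of the other 8 genes, down to -0.900 with COL6A3. Among 5749 mRNAs with a mean of at least 10 FPKM, those most like COL6A1 were the entry BoLA;BOLA;LOC788634 and COL6A2 (r = 0.997 each) and COL11A1 (0.996). Those most like COL6A2 were COL6A1 and BSG (0.997 each) and COL1A1 (0.995), and those like COL6A3 included COPG2 and CD44 (0.995 each). CD44 averaged 55.3, 6.46, 34.1 and 47.0 FPKM at 0, 3, 6 and 9 d.

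COL8A1 was most like SERPINB8 (r = 0.996), S100A4 and CTSZ (0.995 each), and COL16A1 was most like TMEM119 (0.998), CCND1 (0.994) and MRC2 (0.993). TMEM119 averaged 10.9, 0.763, 8.64 and 22.2 FPKM at 0 d, 3 d, 6 d and 9 d. The mRNAs most like COL15A1 were EFEMP1 (0.997), RRAGC (0.993) and ATP11A (0.990), and EFEMP1 averaged 86.7, 8.61, 12.9 and 31.0 FPKM over the 4 days. COL18A1 was most like MLEC (0.992), AHR (0.987) and SOD2 (0.986), and SOD2 averaged 36.1 FPKM at 0 d and 520.3 at 3 d. The values for COL12A1 were lower, with KIFAP3 (0.965), KCTD10 (0.957) and RPS6KA2 (0.955), and those for COL14A1 were 0.963 with ATIC, 0.962 with EPHX1 and 0.959 with SOX11.

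Related genes were read from 6 lists, with changes given as log2 fold changes against 0 d and medians to be set beside the -0.06 at 3 d and -0.19 at 9 d over all mRNAs. Of all mRNAs tested, 15.2% were called lower and 8.06% higher at 3 d, and 7.47% and 3.41% at 9 d. After rescaling these shares were 13.7% and 9.17% at 3 d and 5.34% and 4.34% at 9 d. The counts below were not tested against these shares. Of 19 further minor collagens, 18 were in the table (COL6A6 was not analysed here) and 10 were tested, with a summed level of at most 10.7 FPKM in any library. At 3 d, 3 of the 10 were called lower and 2 higher, with a median log2 fold change of -0.11. COL6A5, another collagen VI chain, averaged 0.507 FPKM at 0 d and 0.0533 at 3 d (log2 fold change -1.98, limma adjusted p = 1.9e-07), and COL17A1, a transmembrane collagen of hemidesmosomes, fell by 2.13 (adjusted p = 3.76e-05). COL25A1, a transmembrane collagen, was 1.98 higher (adjusted p = 8.93e-05), and COL13A1, also transmembrane, was 1.21 higher (adjusted p = 0.000284). At 9 d limma called 2 of the 10 lower and 0 higher, with 3 higher at an unadjusted p under 0.05, and after rescaling 2 lower and 1 higher. Those called were COL17A1 at -1.94 (adjusted p = 0.000175) and COL21A1 at -1.82 (adjusted p = 2.13e-05). All of these but COL25A1 averaged under 1 FPKM on every day, and with a pseudocount of 1 the calls of COL6A5, COL13A1, COL17A1 and COL21A1 were lost.

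Of 16 fibrillar, basement membrane and anchoring collagen chains, 13 were tested. At 3 d, 4 were called lower and 3 higher, with a median of 0.26. COL11A1, a chain of minor fibrils, fell by 2.88 (limma adjusted p = 1.81e-09), from a mean of 181.8 to 24.6 FPKM, and COL4A5 fell by 2.16 (adjusted p = 1.34e-06). The basement membrane chain COL4A2 rose by 2.37 (adjusted p = 1.48e-07), and COL4A1 rose as well (adjusted p = 5.42e-10), like COL18A1 in direction. COL4A1 averaged 76.4, 305.9, 272.5 and 142.1 FPKM at 0, 3, 6 and 9 d, whereas COL18A1 was back at 42.0 by 6 d. At 9 d 1 was called lower and 1 higher, with a median of 0.48, and after rescaling 0 lower and 3 higher. The 2 called as deposited were COL5A3 at -1.03 (adjusted p = 0.00243) and COL4A2 at 1.08 (adjusted p = 0.000122). The call of COL5A3 was lost after rescaling (-0.85), without replicate 1 of 9 d (-0.90) and without replicate 2 of 9 d (-0.93), and with a pseudocount of 1 both calls at 9 d and that of COL4A5 at 3 d were lost.

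Receptors and binding partners of collagen VI numbered 21, of which 18 were tested and ITGA1 was not analysed here. At 3 d, 6 were called lower and 2 higher, with a median of -0.55. CSPG4, a cell-surface proteoglycan that binds collagen VI, was at 199.6, 192.6 and 210.6 FPKM at 0 d and at 10.2, 8.68 and 7.29 at 3 d. Its libraries at 3 d were thus all far below those at 0 d, and CSPG4 fell by 4.52 in log2 terms (limma adjusted p = 6.61e-10). The integrin subunit ITGA3 fell by 5.37 (adjusted p = 1.03e-08). DCN, a small leucine-rich proteoglycan that binds collagen VI, rose by 2.09 (adjusted p = 1.9e-10), from a mean of 9949 FPKM, and the collagen-binding integrin subunit ITGA10 rose by 1.37 (adjusted p = 3.3e-05), a call lost with a pseudocount of 1. At 9 d, 4 were called lower and 3 higher, with a median of 0.11, and after rescaling 3 lower and 4 higher. CSPG4 was then at -1.28 (adjusted p = 1.57e-05), ITGA3 at -1.46 (adjusted p = 0.000319), DCN at 2.16 (adjusted p = 2.83e-09) and the collagen-binding subunit ITGA11 at 1.06 (adjusted p = 0.00045).

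All 17 matrix partners of collagens XII, XIV, XV and XVIII were tested, and at 3 d 5 were called lower and 5 higher, with a median of -0.25. TNC, a glycoprotein of remodelling matrix that binds collagen XII, was at 3911, 3980 and 3980 FPKM at 0 d and at 54.1, 62.3 and 64.0 at 3 d. All 3 d libraries were below those of 0 d, and TNC fell by 6.04 in log2 terms (limma adjusted p = 9.2e-12), with a mean of 5473 FPKM at 6 d. POSTN, a matricellular protein, fell by 4.83 (adjusted p = 3.16e-10). NID2, a basement membrane linker, rose by 3.26 (adjusted p = 9.4e-11), and the laminin chain LAMA2 rose by 2.15 (adjusted p = 1.89e-09). At 9 d, 1 was called lower and 2 higher, with a median of 0.21, and after rescaling 1 lower and 3 higher. TNXB, a tenascin that binds fibril-associated collagens, was at -6.06 (adjusted p = 2.83e-09), with means of 154.1 FPKM at 0 d and 2.21 at 9 d. NID2 was at 1.29 (adjusted p = 1.99e-07) and LUM at 1.67 (adjusted p = 7.06e-08).

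Of 30 genes of collagen synthesis, folding and secretion, 27 were in the table and 26 were tested (P3H3, BMP1 and PCOLCE were not analysed here). At 3 d, 5 were called lower and 2 higher, with a median of -0.41. P4HA3, a catalytic subunit of prolyl 4-hydroxylase, was at 7.80, 7.31 and 7.98 FPKM at 0 d and at 160.6, 183.4 and 176.5 at 3 d. All 3 d libraries were higher, and P4HA3 rose by 4.48 (limma adjusted p = 7.72e-11), and the collagen chaperone FKBP14 rose by 1.19 (adjusted p = 4.52e-07). The prolyl 3-hydroxylase P3H2 fell by 1.93 (adjusted p = 1.03e-06), and PCOLCE2, which enhances procollagen processing, fell by 1.65 (adjusted p = 2.94e-07). At 9 d limma called 0 lower, with 7 lower at an unadjusted p under 0.05, and 3 higher (4 after rescaling), and the median was 0.11. P4HA3 was at 2.26 (adjusted p = 2.89e-08), FKBP14 at 1.05 (adjusted p = 3.59e-06) and P4HA1, another subunit of the same enzyme, at 1.79 (adjusted p = 0.00534). For P4HA1, replicate 3 of 0 d was at 12.9 FPKM against 47.6 and 43.2 in the others, and without it the 9 d value was 1.18 (adjusted p = 1.14e-05).

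Of 13 proteases and inhibitors, among them enzymes that release C-terminal collagen fragments, 12 were in the table and 9 were tested (CTSK was not analysed here). At 3 d, 3 were called lower and 1 higher (2 after rescaling), with a median of -0.30. TIMP3, an inhibitor of metalloproteinases that binds the matrix, fell by 5.55 (limma adjusted p = 4.49e-07), and the cathepsins CTSL and CTSS fell by 2.51 (adjusted p = 2.44e-07) and 1.78 (adjusted p = 9.27e-08). MMP2, a gelatinase, rose by 1.90 (adjusted p = 1.79e-09). At 9 d, 1 was called lower and 2 higher, with a median of -0.10. TIMP1 was at 1.47 (adjusted p = 4.61e-07), MMP2 at 1.39 (adjusted p = 9e-08) and TIMP3 at -1.26 (adjusted p = 0.0172). The TIMP3 value missed the threshold without replicate 1 of 0 d (-1.19, adjusted p = 0.0544), replicate 3 of 0 d (-1.20, 0.0514) or replicate 2 of 9 d (-1.17, 0.0579).

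**Figure D4:**
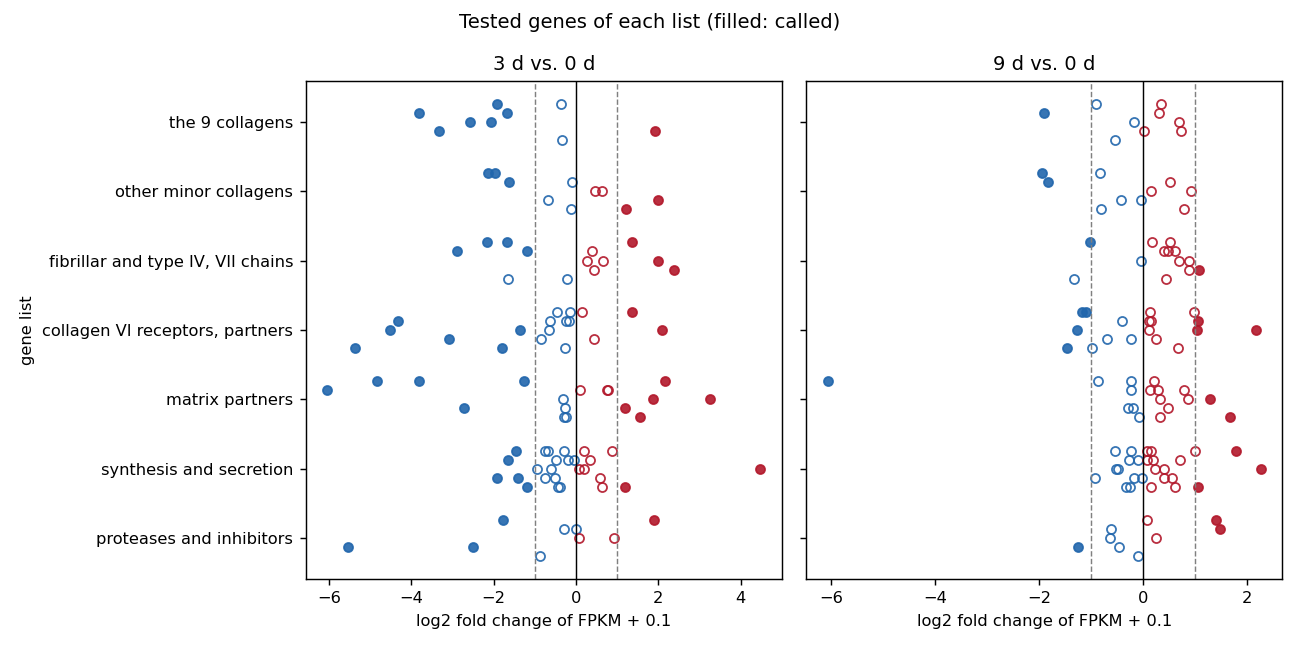
Log2 fold change of FPKM + 0.1 against 0 d (horizontal axes) at 3 d (left) and 9 d (right) for every tested gene of the 9 collagens and of 6 gene lists (vertical axis), with filled points for called genes, open points for the others, red for positive and blue for negative values, and dashed lines at 1 in either direction. Called genes lie on both sides in each list at 3 d, and fewer are called at 9 d.

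Circular RNAs, which arise by back-splicing, gave a separate count for the same genes. The labels describe poly(A) selection and the study's methods the removal of ribosomal RNA, and which of them preceded these counts is not known. The deposited table listed 49 circRNAs with 131 back-spliced reads over all libraries whose host was 1 of 6 of the 9 genes, out of 14070 circRNAs. COL12A1 hosted 27 of them with 92 reads and COL14A1 hosted 15 with 22, while COL15A1, COL16A1 and COL6A3 hosted 2 each and COL6A1 hosted 1. The table lists 0 circRNAs for COL6A2, COL8A1 and COL18A1. The libraries held 5358 to 10729 back-spliced reads in all, and a single library gave at most 21 reads to the hosts together. On the deposited SRPBM scale, which relates back-spliced reads to all mapped reads, the circRNAs of COL12A1 summed to a mean of 150, 126, 123 and 78.4 at 0, 3, 6 and 9 d. These means rest on few reads that differed between libraries, with 12, 1 and 8 reads at 6 d and 6, 2 and 7 at 9 d.

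Only 5 of the 49 had at least 5 reads over the libraries and were among the 2828 circRNAs tested, all hosted by COL12A1 on chromosome 9. They were circRNA1368 with 7 reads, circRNA1823 with 16, circRNA2937 with 21, circRNA4264 with 6 and circRNA4546 with 8. By edgeR, 0 of the 5 were called at 3 d against 0 d, where 0.813% of all circRNAs tested were called, 0 at 6 d (0.53% of all) and 0 at 9 d (0.566% of all). At an unadjusted p under 0.05 edgeR gave 1 of the 5 at 3 d, 0 at 6 d and 1 at 9 d, and DESeq2 called 0 and gave 0 under that level on each day. The 1 in question was circRNA4546, whose 8 reads all came from replicate 3 of 0 d. The table gives circRNA1823 the plus strand and the other 4 the minus strand.

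COL18A1, COL6A1 and COL6A2 lie on chromosome 1 and are near neighbours in the RefSeq gene order of the later assembly ARS-UCD2.0, and COL8A1 is on the same chromosome. That annotation places 0 genes between COL6A1 and COL6A2 and 7 between COL18A1 and COL6A1, of which 4 were tested. At 3 d against 0 d 1 of the 4 was called higher, beside 8.06% of all mRNAs, and 0 lower, beside 15.2%. It was the lncRNA gene LOC112448014 at 1.96 (limma adjusted p = 0.00129), with means of 0.187 and 0.983 FPKM, and the call was lost with a pseudocount of 1 (0.73). SLC19A1, a folate carrier between the collagen genes, differed by -0.36 (adjusted p = 0.00789). These genes were singled out for their position, and their values had been seen when they were chosen. COL18A1 thus rose at 3 d while COL6A1 and COL6A2, its neighbours, fell.

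Markers of other cells moved over the same days. All 8 markers of smooth muscle or pericytes were in the table, and their summed level was 2299, 2342 and 2488 FPKM at 0 d and 239.3, 263.7 and 255.5 at 3 d. It was 1961, 2093 and 2094 FPKM at 6 d and 962.8, 888.5 and 965.8 at 9 d, with the highest mean over the 12 libraries for ACTA2, a contractile actin. The sum was thus lowest at 3 d, as were COL6A1, COL6A2, COL6A3 and COL16A1. Its fall came mainly through ACTA2, with means of 1697 FPKM at 0 d and 26.8 at 3 d. Unlike those genes, the sum was lower at 9 d than at 6 d. At 3 d 5 of the 7 tested markers were called lower (15.2% of all mRNAs) and 1 higher (8.06%). The 1 called higher was MCAM, with means of 3.58 FPKM at 0 d and 17.5 at 3 d. MYH11 was not called, and its means were 23.3 FPKM at 0 d and 57.2 at 3 d. CSPG4 is in both this list and that of collagen VI partners, and DES is also a skeletal muscle marker.

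Of 8 skeletal muscle markers 7 were in the table (PAX7 was not analysed here), and their sum was 710.7, 746.5 and 835.1 FPKM at 0 d and 268.3, 292.2 and 291.7 at 3 d. It was 383.5, 374.4 and 417.6 FPKM at 6 d and 305.4, 277.4 and 303.6 at 9 d, with the highest overall mean for DES, and every later library was below those of 0 d. Of the 7 tested markers, 6 were called lower at 3 d (15.2% of all mRNAs) and 0 higher (8.06%). At 9 d, 5 were called lower (7.47%) and 0 higher (3.41%). The 8 tendon or cartilage markers summed to 44.0, 50.7 and 47.7 FPKM at 0 d and to 8.29, 6.09 and 7.16 at 3 d. Their sum was 39.6, 32.9 and 35.0 FPKM at 6 d and 41.6, 42.3 and 47.6 at 9 d. MKX had the highest overall mean of these and COL2A1 was under 0.1 FPKM in every library. The sum was lowest at 3 d in this list as well, mainly through MKX. Of its 6 tested genes 2 were called lower at 3 d (15.2% of all mRNAs) and 0 higher (8.06%).

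The adipocyte sum was 8.13, 7.87 and 8.61 FPKM at 0 d and 108.7, 98.0 and 104.3 at 3 d. It was 30.6, 31.5 and 33.4 FPKM at 6 d and 16.1, 16.2 and 21.0 at 9 d. It was highest at 3 d, mainly through FABP4. Of the 6 adipocyte markers 4 were called higher at 3 d, against 8.06% of all mRNAs, and 4 at 9 d, against 3.41%. The sum over the 8 preadipocyte or fibroblast markers was between 977.4 and 1029 FPKM at 0 d, between 1887 and 1962 at 3 d, between 1140 and 1196 at 6 d, and between 1499 and 1557 at 9 d. Its genes did not move together, since at 3 d 3 of the 7 tested were called higher (8.06% of all mRNAs) and 2 lower (15.2%). The 8 markers of proliferating cells had sums between 81.0 and 96.2 FPKM at 0 d, between 101.3 and 126.0 at 3 d, between 80.4 and 84.0 at 6 d, and between 61.0 and 65.9 at 9 d, with the highest overall mean for AURKB. The part of all these cells in the changes of the collagens was not tested.

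Endothelial and immune markers were near the lower limit. The 8 endothelial markers summed to between 2.52 and 3.74 FPKM in any library, with the highest overall mean for VWF, and PECAM1, KDR, EMCN and TIE1 were under 0.1 FPKM in every library. The 8 immune markers summed to 2.08, 1.18 and 1.12 FPKM at 0 d and to 5.13, 5.91 and 5.76 at 3 d, with the highest overall mean for CD14. Their sum was 2.39, 3.37 and 5.52 FPKM at 6 d and 4.49, 3.99 and 3.35 at 9 d. At 3 d, 3 of the 4 tested were called higher (8.06% of all mRNAs) and 0 lower (15.2%). The part of these cells in the changes of the collagens was not tested either. PTPRC, the pan-leukocyte marker, was at 0 in all 12 libraries, and AIF1, CD3E and LYZ were under 0.1 FPKM in each.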

How the data were processed

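RNA of 12 libraries (4 days, 3 replicates) was measured. The authors deposited FPKM per mRNA, back-spliced read counts per circRNA, and a circRNA signal (SRPBM) normalized to mapped reads. The labels name Bowtie 0.12.2, HISAT2 2.0, StringTie 1.3.0 and the mouse genome build mm8. The study's methods name the bovine ARS-UCD1.2, and the tables hold bovine genes and chromosomes, so the genome build was not settled from the labels alone. The mRNA table holds no counts, so limma 3.58.1 with a trended prior was run in R 4.3.3 on log2(FPKM + 0.1) of mRNAs with a mean FPKM of at least 0.1, with 1 mean per day over all libraries and Benjamini-Hochberg adjustment over all mRNAs tested. A call needed an absolute log2 fold change over 1 and an adjusted p under 0.05. CircRNAs with at least 5 reads were tested with edgeR 4.0.16 (TMM, quasi-likelihood) and, as an alternative, DESeq2 1.42.0, and their counts range from 5358 to 10729 reads per library. Exact permutation tests of the 6 sums and ratios, tables and figures used Python 3.11.15 with NumPy 2.4.6, pandas 2.3.3, SciPy 1.17.1 and Matplotlib 3.10.9. The limma, edgeR and permutation runs were tested on simulated data, and DESeq2 was not. With a large spread between libraries edgeR did not call the simulated circRNA changes, so its counts of 0 do not show an absence of change.

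The members and lists were chosen with earlier results of these data known. Named by rule were the 9 members, the 2 highest and 2 lowest called genes of each of 6 gene lists at 3 d and at 9 d against 0 d, the 3 mRNAs most like each member (Pearson r, mean FPKM of at least 10, symbol not starting with LOC; 1 of these is not reported here), and the gene with the highest mean over the libraries and the genes at 0 of each of 8 cell marker lists. CD44, COL4A1 at later days, CIDEC, MCAM, MYH11 and the genes named as under 0.1 FPKM were described after their values were seen. Alternatives were other pseudocounts and filters, rescaling by the median of ratios, only the 6 libraries compared, a replicate block, no trend in the prior variance, and leaving out each library. Not used were 36 per-sample columns of 2 tables (lncRNA and miRNA), since miRNAs do not measure these genes and lncRNA entries carry assembly numbers for which the deposited tables give no gene names.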

Additional observations from a re-analysis of the deposited data

How the results depend on the processing

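Of 1080 fold changes of the 9 collagens under alternative settings, 1039 kept their direction and their side of the adjusted p threshold, 31 lost it, 8 gained it and 2 changed sign. The sign changed only for COL8A1 at 9 d against 0 d, from 0.02 to -0.01 without replicate 2 or replicate 3 of 0 d (range over the left-out libraries -0.01 to 0.07), a difference within the spread between libraries. COL16A1 at 6 d against 0 d lost the threshold under 17 settings (adjusted p 0.0509 to 0.909) and COL12A1 under 7 (0.0521 to 0.65), and COL12A1 at 6 d against 3 d under 6 (0.0536 to 0.066). The cause was not tested. The number of members called was unaltered when any 1 library was left out (7 at 3 d, 2 at 6 d, 1 at 9 d against 0 d, 6 at 6 d against 3 d, 2 at 9 d against 6 d, 7 at 9 d against 3 d). With a pseudocount of 1, 1 member in place of 2 was called at 6 d against 0 d, 1 in place of 2 at 9 d against 6 d, and 5 in place of 6 at 6 d against 3 d, in each case by the loss of COL8A1, since a larger pseudocount shrinks the changes of low values by construction. Under the other alternatives the same members were called.

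With a replicate block, the number of members called and the members themselves were the same in all 6 comparisons. Within the block the adjusted exact p was 0.00521 for the COL6A2 to COL6A1 ratio, the COL6A3 to COL6A2 ratio, the collagen VI sum and the COL15A1 to COL18A1 ratio, 0.00625 for the COL6A3 to COL6A1 ratio and 0.0226 for the COL12A1 to COL14A1 ratio. The labels do not pair libraries across days. The 18 pairs with the same replicate number had r from -0.098 to 0.112 after removal of the day means, with 2 over 0.1. Pairs with different numbers had r from -0.19 to 0.183. With 3 libraries on each day, these values cannot show whether the numbers pair the samples. Leaving out a library gave adjusted p from 0.0021 to 0.0121 for the COL12A1 to COL14A1 ratio and at most 0.00397 for the other 5 values.

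Of 811 calls of named list genes under alternatives, added after seeing the data, 796 were kept and 15 were lost. The rescaled counts of the gene lists and the alternatives for the genes between COL18A1 and COL6A1 were added after seeing the data as well. The circRNA counts of 0 were the same under every alternative run, and with at least 20 reads 1 circRNA was tested. Results on lncRNAs of the same loci were not run, as the deposited tables give no gene names for their assembly numbers. FPKM rounded to 2 decimals limits COL8A1 at 3 d, and the mRNA table gives no read totals.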
